A study of Mus musculus with 44 samples.

Results

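The mRNAs described here encode the subunits of the oxidative phosphorylation (OXPHOS) complexes that are made from nuclear genes. They were found by symbol among the RefSeq rows of the deposited files, as genes whose names begin with Nduf followed by a, b, c, s or v, with Uqcr, with Atp5 or with Cox4 to Cox8, together with Sdha, Sdhb, Sdhc and Sdhd. Of 17010 accessions that carried a symbol, 93 matched. These were 85 subunits, of which 36 belong to complex I, 4 to complex II, 8 to complex III, 20 to complex IV and 17 to complex V, and 8 Ndufaf genes, which the rule also takes in although they encode factors that assemble complex I and are no part of it. Ndufa4 and Ndufa4l2 carry complex I names, but NDUFA4 is a subunit of complex IV, and both were placed there.

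The study profiled mouse cortical neurons and brain tissue by RNA-seq, by ribosome profiling, which counts ribosome-protected fragments (RPFs), and by TAIL-seq or PAL-seq v2, which count poly(A)-tail tags and measure tail length. The 9 cultures were made from cortices of newborn male and female pups and treated with ara-C, which kills dividing cells. Those taken at 14 days in vitro (DIV14) were left unstimulated, given BDNF or glutamate plus glycine (glu/gly) during the last 30 min, or transduced with a lentivirus carrying GFP alone, miR-1 or miR-155 behind the synapsin promoter, which is active in neurons. Those taken at DIV10 were left unstimulated or depolarized by KCl, lasting either 10 or 30 min. Several litters went into the cultures, and the labels do not tell which culture came from which batch. The 3 tissues were the hippocampus and cortex of adult male mice and embryonic hippocampi, and the visual cortex came from mice kept in the dark for a week, 4 of which were then exposed to light for 1 h and 4 of which were not. For a culture or tissue every assay was done once, so that light against dark alone has replicates, and intervals given for single libraries cover counting error only. Poly(A) selection preceded RNA-seq of the hippocampi and depletion of ribosomal RNA that of adult cortex and 6 cultures, while for the other 3 cultures the step is not stated. Reads on genes ran from 448022 to 7689624 in 12 RNA-seq libraries and from 817114 to 23212489 in 12 RPF libraries, and tags from 86841 to 4812273 in 20 libraries. Levels are given as counts scaled to 1000000 on listed genes in each library (CPM), for reads, RPFs and tags alike. The labels of 2 RPF libraries contradict themselves, so the miR-1 and miR-155 cultures have no RPF value here.

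The OXPHOS complexes sit in the inner membrane of mitochondria. Complexes I and II take electrons from NADH and succinate, complexes III and IV pass them on to oxygen, and the proton gradient built by complexes I, III and IV drives ATP synthase, which is complex V. The catalytic core of complex IV and parts of the other complexes except II are made in the mitochondrion from its own genome, whereas the subunits treated here are made in the cytosol and imported. Neurons draw most of their ATP from this pathway. The 93 mRNAs took up 0.859% to 2.4% of the RNA-seq reads on genes in a library, 1.23% to 1.78% of the RPFs in the libraries with settled labels and 2.84% to 4.54% of the tail tags.

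The subunit mRNAs were short. Their median coding sequence was 405 nt against 1344 nt for all genes, their median 3′ UTR 150 nt against 915 nt, and their median number of exons 4 against 8. Coding sequences below 500 nt made up 65.9% of the subunits and 9.26% of all genes. Because the authors left the first 50 nt of each open reading frame (ORF) uncounted, the median subunit was counted over 358 nt.

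Many subunits also share sequence with other places in the genome, which may bear on the read counts of those subunits. For each subunit, the share of 30-nt windows of the counted ORF that occur exactly at another place of the assembly GRCm38.p6 was computed. It was at most 20% for 51 subunits and above that for 34, and it was 100% for 7 of them: Atp5g1, Atp5g2, Atp5l, Atp5md, Cox7c, Ndufab1 and Ndufb4. Next came Uqcrb at 88.7%, Atp5h at 85.3%, Ndufa12 at 84.7%, Cox5b at 80.7%, Cox6c at 79.6% and Ndufs5 at 77.7%. The complex II genes, by contrast, had none. A 30-nt window from each of 5 ORFs shows the difference, the first 4 with copies elsewhere and that of Cox4i1 with none. All are given 5′ to 3′ on the coding strand in lower case, with the assembly GRCm38.p6.
Cox7c, chr13:86045809-86045838, minus strand, 3 other places: ggttgctggctatgatgaccgtgtactttg
Atp5md, chr19:47086007-47086036, minus strand, 1 other place: cacatatggaggcattgctttgctggtctt
Ndufb4, chr16:37649106-37649135, minus strand, 2 other places: cctatgcaagatcagcaaatatttatccta
Ndufs5, chr4:123715880-123715909, minus strand, 1 other place: gatagagttcgatgacttcgaagagtgctt
Cox4i1, chr8:120672861-120672890, plus strand, 0 other places: gagcagcctttccagggatgagaaagttca

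Of the 7 mRNAs without a unique window, 6 had few or no reads in any read library, and Ndufb4 had reads in all 24, but several stood far higher in tail tags. Cox7c, a small subunit of complex IV, had 0 reads in 11 of 12 RNA-seq libraries and in all 10 RPF libraries with settled labels, yet 238.4 to 381.9 CPM in the 10 TAIL-seq libraries. Ndufb4, an accessory subunit of complex I, had 2.731 to 25.55 CPM in RNA-seq against 256.3 to 381 CPM in TAIL-seq. Atp5md had 0 reads in 11 of 12 RNA-seq libraries and 11.67 to 80.62 CPM in TAIL-seq. Ndufab1 and Atp5l, the carrier protein of complex I and the g subunit of ATP synthase, were low in both, with at most 5.222 and 6.253 CPM in TAIL-seq. A read count at or near 0 for these mRNAs is therefore no measure of their expression. Read CPM, unlike tag CPM, also depends on counted length, so the 2 scales are not equal. That length was 340 nt for Ndufb4 against a median of 1309 nt for all genes. How reads with several genomic matches were treated is not stated for these libraries, and the part of shared sequence in the low counts was not tested. Reads were detected in all 24 read libraries for 71 of the 85 subunits and tags in all 20 tag libraries for 72.

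The 3 genes for the c subunit of ATP synthase, the ring that turns as protons pass, differ in how much sequence they share with other places. Atp5g1, Atp5g2 and Atp5g3 encode different import sequences but the same mature protein. Over the last 76 codons, stop codon included, 0 residues differed between any pair, while 34 of 228 bases differed between Atp5g1 and Atp5g2, 46 between Atp5g1 and Atp5g3 and 49 between Atp5g2 and Atp5g3. A stretch of 30 nt from the region with the same protein is shown for each, in GRCm38.p6, with the 6 bases at which the 3 genes are not all alike in capitals.
Atp5g1, chr11:96073606-96073635, minus strand, 1 other place: gacatCgaCacAgcAgccaaGttcattggT
Atp5g2, chr15:102665137-102665166, minus strand, 3 other places: gacatCgaCacAgcTgccaaGttcattggA
Atp5g3, chr2:73909267-73909296, minus strand, 0 other places: gacatTgaTacTgcTgccaaAttcattggT
Atp5g3, which had no window elsewhere, was at 180.9 to 443.3 CPM in RNA-seq and 1544 to 2464 CPM in TAIL-seq. Atp5g1 had 0 reads in all 12 RNA-seq libraries and 76.06 to 174.7 CPM in TAIL-seq, and 141.1 to 174.3 CPM in PAL-seq in visual cortex. Atp5g2 had at most 1 RNA-seq read and reached 6.718 CPM in TAIL-seq and 18.51 CPM in visual cortex PAL-seq. In each of the 20 tag libraries the order was Atp5g3, Atp5g1, Atp5g2, so that Atp5g3 stood highest by tags. The paper aligned tags with a limit of 1 genomic match, and shared sequence was computed here for ORFs and not for 3′ ends. The part of shared sequence in this order was not tested.

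Promoters were matched for 69 of the 85 subunits in the RefSeq table of this assembly, each covering 250 bases before to 50 after the annotated start. Motifs were searched on both strands for 4 factors known to act on genes of mitochondrial proteins. The NRF1 motif, which is GCGCA, any base and GCGC, lay in 16 subunit promoters (23.2%) and in 8.3% of all 13497 promoters. By complex it lay in 7 of 32 promoters of I, 2 of 3 of II, 1 of 5 of III, 1 of 14 of IV and 5 of 15 of V. The YY1 motif AAGATGGC lay in 9 (13%) against 3.83%, and 7 of these 9 were complex I genes. The ERR motif TCAAGGTCA lay in 2 (2.9%) against 0.267%, and the ETS motif CCGGAAGT in 5 (7.25%) against 6.58%. These matches are descriptions of the letters in the window and not sites of binding. The following windows from Sdha and Ndufa8, examples from complexes II and I, and from Cox6a1, the only case in complex IV, show the NRF1 motif in capitals. All lie on the minus strand of GRCm38.p6 and are given in the direction of the gene, and a motif on the opposite strand reads GCGC, any base and TGCGC here.
Sdha, chr13:74350321-74350346, 98 bases before the start: tttacaggGCGCAGGCGCaccaccac
Ndufa8, chr2:36049351-36049376, 30 bases before the start: agagcagtGCGCTTGCGCgtcgctgg
Cox6a1, chr5:115349103-115349128, 162 bases before the start: ggaacgggGCGCATGCGCgctctcgc

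Several complex IV subunits exist as isoforms from separate genes, and in these samples 1 member of each family carried most of the mRNA. Cox4i1 had 381.2 to 1529 CPM in RNA-seq against at most 2.471 for Cox4i2, which is known from lung and hypoxia. Cox6a1 had 81.28 to 231.6 against at most 6.194 for the muscle form Cox6a2, and Cox7a2 85.83 to 281.4 against at most 5.877 for the muscle form Cox7a1. The ranges did not overlap in these 3 families. Cox7b was at 27.18 to 188.7 and Cox7b2 at 0 to 1.966, Cox8a at 20.16 to 206, Cox8b at 0 to 3.767 and Cox8c at 0 in all 12 libraries. Ndufa4 was at 71 to 319.2 and Ndufa4l2, its hypoxia-linked relative, at 0 to 2.081.

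Cox6b1 and Cox6b2, the latter best known from testis, differed from this pattern in that Cox6b2 was measurable in cultures. Cox6b1 had 94.8 to 294.6 CPM in RNA-seq. Cox6b2 reached 15.11 CPM in RNA-seq, 52.97 CPM in RPFs and 107.5 CPM in TAIL-seq, each of these in unstimulated DIV10 cultures, and had 1.667 CPM in TAIL-seq in adult cortex. Tag levels also differed between TAIL-seq and visual cortex PAL-seq, which were run on different samples, for some dominant forms. Cox8a had 59.56 to 270.8 CPM in the TAIL-seq libraries but at most 1.37 in the 8 visual cortex libraries, and Cox6b1 505.8 to 934.2 against 59.88 to 89.99. Cox7a2l, a factor of supercomplexes that the rule places here, had 4.121 to 22.74 CPM in RNA-seq and 274.6 to 360.6 CPM in TAIL-seq, with 56.7% of its windows elsewhere. Tag levels were therefore compared only within an assay.

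Levels per length, as CPM per kb of counted ORF, placed the subunits among the most abundant mRNAs. Over the 43 subunits with at most 20% of windows elsewhere, tissue isoforms left out, the median in unstimulated DIV14 cultures was 537 in RNA-seq against 23 for all genes, which is the 98.5 percentile of all genes, and in RPFs 371 against 14.9. By complex, the RNA-seq medians were 490 for complex I, 413 for II, 507 for III, 1290 for IV and 1460 for V, and the RPF medians 322, 335, 377, 1630 and 1240. The medians of complexes IV and V thus stood above those of I, II and III on both scales, but they rest on 3 and 6 genes. The 8 Ndufaf assembly factors were at 71 in RNA-seq and 30.2 in RPFs. Over all libraries the median of the 43 subunits lay between the 95.7 and 98.8 percentiles in RNA-seq and between the 95.9 and 97.8 percentiles in RPFs.

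The subunits of complex II, which are present in equal number in the complex, differed among themselves more in RNA-seq than in RPFs. Sdha carries the flavin that oxidizes succinate, Sdhb the iron-sulfur clusters, and Sdhc and Sdhd anchor them in the membrane. In unstimulated DIV14 cultures their RNA-seq levels per kb were 446.7 for Sdha, 528.9 for Sdhb, 380.3 for Sdhc and 306.3 for Sdhd. Their RPF levels per kb were 312.1 for Sdha, 309.3 for Sdhb, 357.9 for Sdhc and 372.1 for Sdhd. In adult hippocampus RNA-seq gave 332.7 for Sdha, 298.3 for Sdhb, 104.2 for Sdhc and 81.14 for Sdhd, and RPFs 340.2, 292.4, 264.8 and 207.7. The ratio of the highest to the lowest of the 4 ran from 1.59 to 4.1 in RNA-seq (median 2.12) and from 1.2 to 2.68 in RPFs (median 1.36), and was smaller in RPFs in 10 of 10 conditions. Counts behind the lowest values were small in cultures, with 67 RNA-seq reads for Sdhd and 89 for Sdhc at DIV14, but not in adult hippocampus, with 254 and 349. Counting error widens a ratio of the highest to the lowest more where counts are lower, and RPF libraries were the deeper ones. The counted ORFs were 1945 nt for Sdha, 799 nt for Sdhb, 460 nt for Sdhc and 430 nt for Sdhd. Across all genes, RPFs relative to RNA-seq fell with ORF length in the 3 tissues (Spearman −0.328 to −0.474). They did not in cultures (−0.039 to 0.085). The parts of counting error and of ORF length in the narrower RPF levels were not tested.

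**Figure D1:**
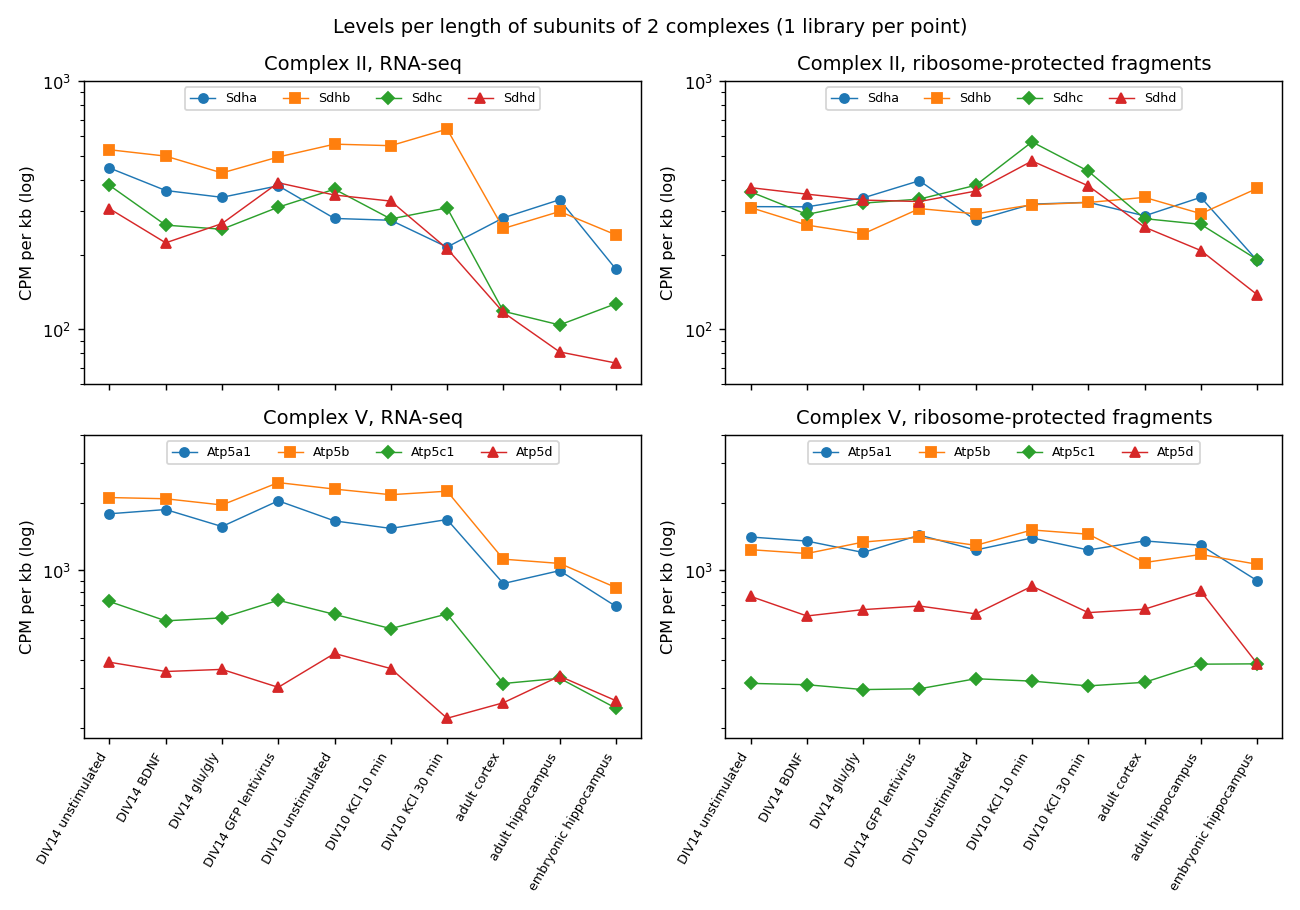
CPM per kb of counted ORF (y axis, log scale) of the 4 subunits of complex II (top) and of 4 subunits of complex V (bottom), in RNA-seq (left) and RPFs (right), with 1 library per point for 10 conditions. Lines join the values of a gene. In RPFs the complex II genes lie within 1.2- to 2.68-fold of each other and Atp5a1 and Atp5b within 0.846 to 1.25 of a 1:1 ratio.

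The same comparison was made for subunits with at least 400 counted nt and at most 20% of windows elsewhere in complexes I and III, a limit set after the values had been seen. In complex III these were Uqcrc1 and Uqcrc2, the core proteins, and Uqcrfs1, the Rieske iron-sulfur protein. In unstimulated DIV14 cultures they stood at 506.5, 495.9 and 322.1 per kb in RNA-seq and at 351.4, 317 and 377.2 in RPFs, and their ratio of highest to lowest was smaller in RPFs in 10 of 10 conditions, with medians of 1.46 and 1.17. In complex I, 15 such subunits had an SD of log2 level of 0.65 to 0.8 in RNA-seq and 0.54 to 0.89 in RPFs, smaller in RPFs in 9 of 10 conditions and larger in adult hippocampus. The ratio of highest to lowest in complex I remained at 4.41 to 11.5 in RPFs. Narrower levels in RPFs thus held for most conditions, without levels becoming equal in complex I. The counted ORFs of Uqcrc1, Uqcrc2 and Uqcrfs1 were 1393, 1312 and 775 nt, and the part of length was not tested here either.

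In complex V the stoichiometry is not equal, since the catalytic head holds equal numbers of alpha and beta subunits, from Atp5a1 and Atp5b, and a single gamma and delta subunit, from Atp5c1 and Atp5d. The ratio of Atp5a1 to Atp5b per kb was 0.708 to 0.929 in RNA-seq (median 0.814) and 0.846 to 1.25 in RPFs (median 0.987), higher in RPFs in 10 of 10 conditions. The ratio of Atp5a1 to Atp5c1 had a median of 2.77 in RNA-seq and 4.15 in RPFs and was higher in RPFs in 9 of 10 conditions, the exception being embryonic hippocampus with 2.83 and 2.34, with 23.3% of the Atp5c1 windows elsewhere. Atp5a1 to Atp5d went the other way, from a median of 4.25 in RNA-seq to 1.91 in RPFs. In unstimulated DIV14 cultures Atp5d stood at 391.4 per kb in RNA-seq and 766.8 in RPFs, and Atp5c1 at 727.9 and 315.3. These ratios come from single libraries and were not tested.

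Translational efficiency (TE) was taken as log2 of an mRNA's RPF value over its RNA-seq value, both in the authors' RPM, which is scaled to a larger total than CPM, where RNA-seq had at least 10 RPM. Since the RPM totals hold reads outside the listed genes, with 13.8% to 46.1% of the total on genes in RNA-seq and 51.3% to 79.5% in RPFs, its zero has no fixed meaning and each value was set against all genes of the same sample. In cultures the subunits lay close to the median of all genes. With unstimulated DIV14 cultures the median was 1.22 for 66 subunits and 1.14 for all genes, at DIV10 1.22 and 1.17, with BDNF 1.08 and 1.04, with glu/gly 1.00 and 0.91, and with GFP lentivirus 1.34 and 1.26. After KCl the medians were 1.01 and 0.74 at 10 min and 1.64 and 1.44 at 30 min. In the 7 cultures 54.5% to 70.8% of the subunits lay above the median of all genes, or 46.5% to 69.8% of those with at most 20% of windows elsewhere. With a minimum of 30 RPM in place of 10, the share was 27.5% to 48.9%.

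In the 3 tissues the subunits lay above the median of all genes. The medians were 1.40 for subunits and 0.67 for all genes in embryonic hippocampus, 1.64 and 0.88 in adult hippocampus and 2.22 and 1.31 in adult cortex, with 86.9%, 87.7% and 96.6% of the subunits above the median. With a minimum of 30 RPM these shares were 85% to 95.5%. Other genes with a counted ORF below 450 nt had medians of 1.10, 1.62 and 2.47 in the same order, and 74.8%, 77.4% and 91.3% of them lay above the median. Across all genes TE fell with ORF length in tissues, with Spearman correlations of −0.328, −0.380 and −0.474, and did not in cultures, with −0.039 to 0.085. Short genes of other functions thus shared the position of the subunits in tissues, and the part of length in it was not tested.

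By complex, the share above the median of all genes in cultures was 43.3% to 64.5% for complex I, 50% to 75% for complex II, 42.9% to 85.7% for complex III, 70% to 80% for complex IV and 38.5% to 69.2% for complex V. In tissues all measured subunits of complexes II and IV lay above it. The 8 Ndufaf assembly factors, of which few passed the minimum, had medians that differed by −1.10 to −0.52 from that of all genes in cultures. Enzymes of glycolysis, from a list of 16, had 92.3% to 100% above the median in cultures, and those of the tricarboxylic acid cycle, also 16, had 60% to 86.7%.

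Means of TE over samples were used to name mRNAs at the ends of the range. Atp5d, the delta subunit of ATP synthase, had the highest mean TE over its samples, 2.501 (SD 0.60, n = 10), with values from 1.33 in embryonic hippocampus to 3.58 after KCl for 30 min. Atp5g3 followed with 2.42 (SD 0.67, n = 10) and Uqcrq, a small subunit of complex III, with 2.41 (SD 0.60, n = 9, without the GFP culture). As percentiles of all genes in a condition, Atp5d lay between 79.4 and 97.2, Atp5g3 between 72.4 and 98.8 and Uqcrq between 82.1 and 99.5, so that the order of these 3 is not settled by the means. At the other end were the assembly factor Ndufaf5 with 0.01 (SD 0.44, n = 10) and 2 subunits of complex I, the accessory Ndufb9 with 0.27 (SD 0.29, n = 10) and the core Ndufv2, an iron-sulfur protein, with 0.45 (SD 0.48, n = 10). Ndufb9 stayed between the 14.6 and 35.6 percentiles. Ndufv2 ranged from the 10.8 percentile with glu/gly to the 74.1 percentile in embryonic hippocampus. Across subunits the Spearman correlation of TE between unstimulated DIV14 cultures and adult cortex was 0.825 over 59 subunits, against 0.675 over 4086 genes. In the other 3 pairs of samples compared it was lower for the subunits than for all genes, at 0.772 against 0.914 for unstimulated and GFP cultures, 0.647 against 0.785 for adult hippocampus and cortex and 0.518 against 0.658 for adult and embryonic hippocampus.

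Adult and embryonic hippocampus were compared for the change of these mRNAs with age. An mRNA counted as higher or lower when its CPM differed at least 1.5-fold and 1 of the libraries had at least 10 RPM. In adult hippocampus 29 of 65 subunits were higher (background 26.4% of all genes) and 1 was lower (40.5%). The median log2 ratio was 0.56 against −0.32 for all genes. It was above 0 for 61 of 65 subunits, for which the share of all genes is not given here. The count of higher subunits depended on the scaling, at 51 when the median ratio of all genes was set to 1 and 10 with the authors' RPM. A change of scaling, by contrast, moves the medians of subunits and all genes together. Of these 65 subunits, complex IV had 8 of 10 higher and complex V 3 of 13. RPFs gave a median of 0.54 against −0.30, with 32 of 68 subunits higher (32.3% of all genes) and 7 lower (43.1%). By tail tags, with 86841 in the embryonic library, the median over 50 subunits was 0.42 and that of all genes 0.57, so that this assay did not show the subunits above other genes. Other genes with an ORF below 450 nt had a median of −0.31 in RNA-seq.

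The 5 largest ratios in hippocampus came from complexes I, III and IV. Cox8a, a short subunit of complex IV, had 68.68 CPM in adult and 20.16 in embryonic hippocampus, a ratio of 3.41 (95% interval 2.84 to 4.11). Uqcr10 of complex III had 55.35 and 18.6, a ratio of 2.98 (2.45 to 3.63). Ndufb3 had 39.28 and 16.39, and Ndufs7, a core subunit of complex I with an iron-sulfur cluster, 158.9 and 67.1, ratios of 2.4 and 2.37. Cox7b had 57.28 and 27.18, a ratio of 2.11. The lower subunit was Atp5e, the epsilon subunit of ATP synthase, with 81.45 and 144.1, a ratio of 0.565 (0.511 to 0.625), and its RPF ratio was 0.586. The assembly factor Ndufaf2 was also lower, with 15.25 and 37.58 and a ratio of 0.406. Within complex II Sdha had a ratio of 1.9, Sdhb 1.24, Sdhd 1.11 and Sdhc 0.821.

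Related pathways were taken from lists. Of the tricarboxylic acid cycle 10 of 15 measured genes were higher in adult hippocampus and 0 lower, and of glycolysis 12 of 13 and 0, with a median log2 ratio of 1.68. Of 22 measured OXPHOS assembly factors 6 were higher and 4 lower, and of 8 regulators of mitochondrial genes 2 and 4. Cell type markers differed between these libraries as well. The summed RNA-seq CPM of 5 oligodendrocyte markers were 1230 in adult and 14.4 in embryonic hippocampus, those of 5 astrocyte markers 2140 and 439, those of 5 microglial markers 317 and 63.2, those of 8 neuronal markers 5400 and 2940, and those of 4 markers of progenitors and dividing cells 37.2 and 786. Their part in the result was not tested. In bulk samples fewer cells of a type and less RNA per cell cannot be told apart.

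Adult cortex was compared with unstimulated DIV14 cultures as the tissue the cultures stand for. In RNA-seq 62 of 66 subunits were lower in adult cortex (36.2% of all genes) and 0 higher (25.8%), with a median log2 ratio of −1.01 against −0.24 for all genes and a range of −1.71 to −0.37. In RPFs the median was −0.01 against −0.06, with 2 of 70 lower (20.5%) and 3 higher (17.9%). The difference in TE was above that of the median gene for all 59 subunits measured in both samples, with medians of 0.92 and 0.12. Tail tags gave a median of −0.08 over 71 subunits and −0.12 over all genes, so that the lower level was seen in RNA-seq alone of the 3 assays. Other genes with an ORF below 450 nt had 198 of 276 lower in RNA-seq, a median of −1.06, and 0.03 in RPFs. Tricarboxylic acid cycle genes had 10 of 15 lower and 1 higher, and glycolysis 2 of 13 lower and 3 higher.

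The 5 lowest ratios came from complexes I, II, III and V. Uqcr11 of complex III had 23.4 CPM in adult cortex and 76.66 in cultures, a ratio of 0.305 (0.191 to 0.487), and its RPF ratio was 0.591. Sdhc had 54.41 and 174.9, a ratio of 0.311, and Uqcr10 42.71 and 135.6, a ratio of 0.315. Their RPF ratios were 0.78 and 1.02, nearer to equality. Ndufs5 had 15.21 and 47.17, a ratio of 0.322, with an RPF ratio of 2.15, but only 26 and 24 reads and 77.7% of its windows elsewhere. Atp5j2, the f subunit of ATP synthase, had 75.48 and 214.2, a ratio of 0.352 with 0.815 in RPFs. The longer Sdha had 0.63 in RNA-seq and 0.918 in RPFs. Summed oligodendrocyte markers were 1600 in adult cortex and 5.9 in the culture, with 4 of 5 at 0 in the latter, and astrocyte markers 2800 and 1530. Their part in the result was not tested.

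**Figure D2:**
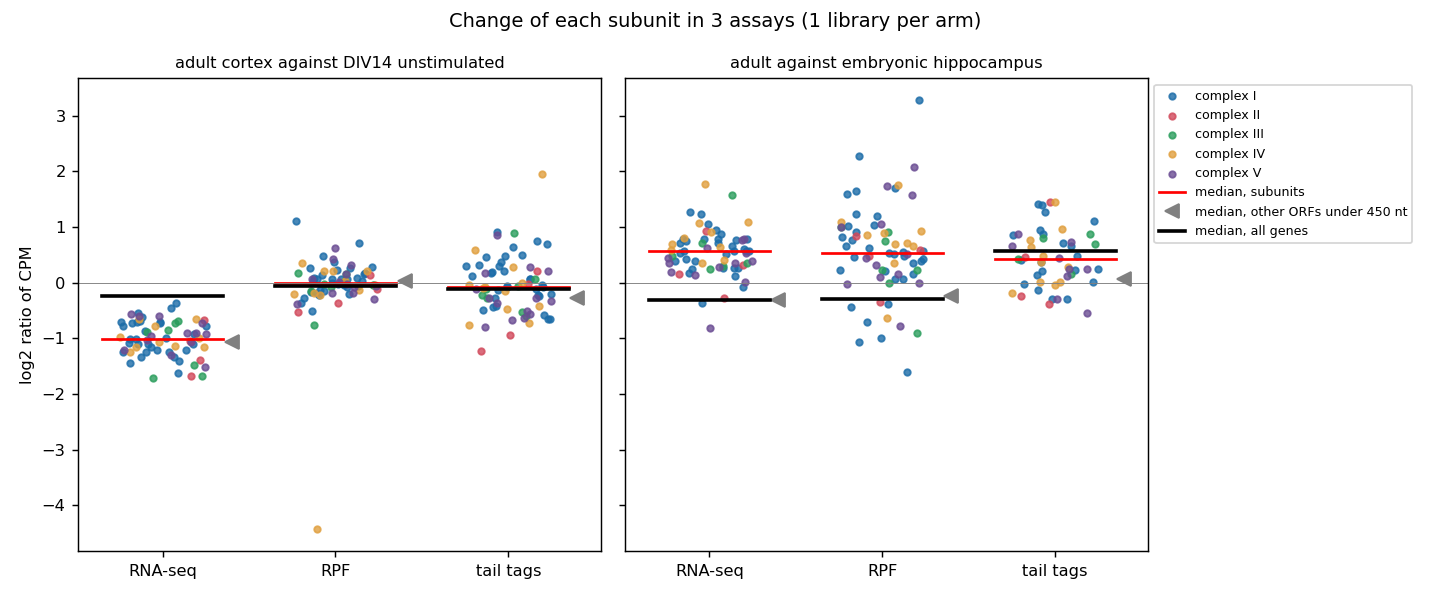
The log2 ratio (y axis, ratio of CPM) of each subunit in RNA-seq, RPFs and tail tags (x axis), for adult cortex against unstimulated DIV14 cultures (left) and adult against embryonic hippocampus (right), with 1 library on each side of a ratio. Red bars are medians of subunits, black bars those of all genes and grey triangles those of other genes with an ORF below 450 nt. In the left panel the red bar lies at −1.01 in RNA-seq and at −0.01 in RPFs, and the lowest RPF point is Cox6b2, with 1.467 CPM in adult cortex and 31.59 CPM in cultures.

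The comparisons among cultures showed few changes of this size. For DIV14 against DIV10, 3 of 66 subunits were higher (10.9% of all genes) and 0 lower (11.9%). They were Sdha, with 868.8 and 544 CPM and a ratio of 1.6 (1.41 to 1.8), Uqcr10, with 135.6 and 84.79 and a ratio of 1.6 (1.16 to 2.19), and Ndufs5 with 1.65 on 24 and 34 reads. By tags Sdha and Uqcr10 had ratios of 0.958 and 1.04. After BDNF 0 of 67 were higher (5.88%) and 4 lower (6.82%), Uqcr10 at 0.523, Ndufs6 at 0.562, Ndufb10 at 0.663 and Ndufb2 at 0.667, while their RPF ratios were 0.8 to 0.937. For both comparisons the share of subunits past 1.5-fold was below that of all genes.

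After glu/gly the subunits as a group lay slightly below other genes. Of 66, 0 were higher (8.87%) and 8 lower (8.45%). A ratio below 1 was found for 57, for which the share of all genes is not given here. The median log2 ratio was −0.21 against −0.03 for all genes, and −0.25 against −0.05 in RPFs. Tail tags did not show this lower position, with 0.02 against 0.00. The lowest were Ndufs3, a core subunit of complex I with 68.6% of its windows elsewhere, with 15 and 27 reads and a ratio of 0.47, and Atp5j of the ATP synthase stalk, with 81.45 and 161.2 CPM and a ratio of 0.505 (0.347 to 0.729). Atp5j had 0.782 in RPFs and 0.642 by tags. Ndufa8 at 0.617, Ndufc2 at 0.632 and Ndufb2 at 0.651 had tag ratios of 1.09, 0.938 and 1.1.

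With KCl, 0 of 65 subunits were higher (4.21%) and 1 lower (3.37%) at 10 min, which was Uqcrq at 0.538 with an RPF ratio of 1.01. At 30 min 3 of 63 were higher (8.15%) and 6 lower (13.3%). Higher were Atp5h at 2.02, Uqcrh, the hinge protein of complex III, at 1.57 and Atp5mpl at 1.55, and the 5 lowest were Ndufa11 at 0.474, Atp5d at 0.516, Atp5g3 at 0.604, Sdhd at 0.608 and Atp5j at 0.632. Their RPF ratios lay between 0.755 and 1.05 and their tag ratios between 0.778 and 1.08, so that none of the 8 was past 1.5-fold in another assay. With the authors' RPM 31 subunits were lower at 30 min, but the share of all genes lower on that scaling is not given, so this count does not set the subunits apart. The reads on genes were 13.8% of the RPM total in that RNA-seq library and 19.5% in the DIV10 control.

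With lentiviruses, GFP against unstimulated cultures gave 1 of 66 subunits higher (6.76%), Atp5h at 1.51 with a tag ratio of 2.9, and 2 lower (10.2%), Uqcrq at 0.316 on 17 and 61 reads and Ndufs3 at 0.631 on 15 and 27. The assembly factor Ndufaf1 was at 1.64 on 26 and 18 reads. Against GFP, miR-1 gave 4 of 66 higher (7.25%) and 0 lower (7.5%), and miR-155 gave 3 of 64 higher (4.93%) and 3 lower (6.28%). With miR-1 these were Ndufs3 at 1.85, Uqcrq at 1.74, Atp5k at 1.56 and Atp5d at 1.53. With miR-155 Uqcrq was at 1.92, Cox8a at 1.56 and Cox6a1 at 1.5, and Ndufs1 at 0.572, Cox7b at 0.631 and Atp5mpl at 0.658. Both comparisons rest on the same GFP library, in which Uqcrq had 17 reads. Ndufs1, the largest subunit of complex I, had 723.2 CPM with GFP and 414 with miR-155 (0.503 to 0.652 for the ratio), and its tag ratio was 0.642.

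Tail lengths of the subunits were shorter than those of other mRNAs in cultures and cortex. In unstimulated DIV14 cultures the median over 71 subunits with at least 50 tags was 102 nt against 112 nt for all genes, and 58 of the 71 lay below the latter. Over the 9 cultures the difference was −12.9 to −8.2 nt, with 75.7% to 85.9% of subunits below the median of all genes. In adult cortex it was −8.47 nt (80% of 70 subunits) and in the 8 visual cortex samples −10.4 to −4.67 nt (70.6% to 86.8%). Other genes with an ORF below 450 nt differed by −4.39 to −2.59 nt in cultures, by −0.591 nt in adult cortex and by −2.6 to 0.692 nt in visual cortex. The shorter tails of the subunits were thus not shared in full by short mRNAs of other functions. The hippocampal values come in steps of 0.5 nt, as medians of whole numbers do, and were not set beside the means of the other samples. There the subunits had medians of 55 against 54 nt (n = 50) in adult and 66 against 64 nt (n = 16) in embryonic tissue. In adult hippocampus the direction turned with the tag minimum, since 25.8% of subunits lay below the median of all genes with at least 20 tags, 40% with 50 and 73.5% with 100.

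The complexes differed in tail length. In cultures the median of complex V differed from that of all genes by −22.2 to −13.9 nt, that of complex I by −13.8 to −6.74 nt, that of complex II by −11.7 to −5.36 nt, that of complex III by −10 to −6.96 nt and that of complex IV by −4.69 to −0.191 nt. In unstimulated DIV14 cultures the median of 14 complex V mRNAs was 89.6 nt, the 4.37 percentile of all genes. In visual cortex, measured by PAL-seq, complex V was nearer to the others, at −10.1 to −4.93 nt. Complex I was at −12.6 to −7.02 nt there. Cultures were measured by TAIL-seq, so assay and tissue cannot be told apart here. The mRNAs also differed, as Atp5j, at the 0.7 percentile in TAIL-seq samples, had a value in 1 visual cortex sample. Tricarboxylic acid cycle genes differed by −1.89 to 6.59 nt from all genes in cultures and glycolysis genes by −1.73 to 3.73 nt.

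**Figure D3:**
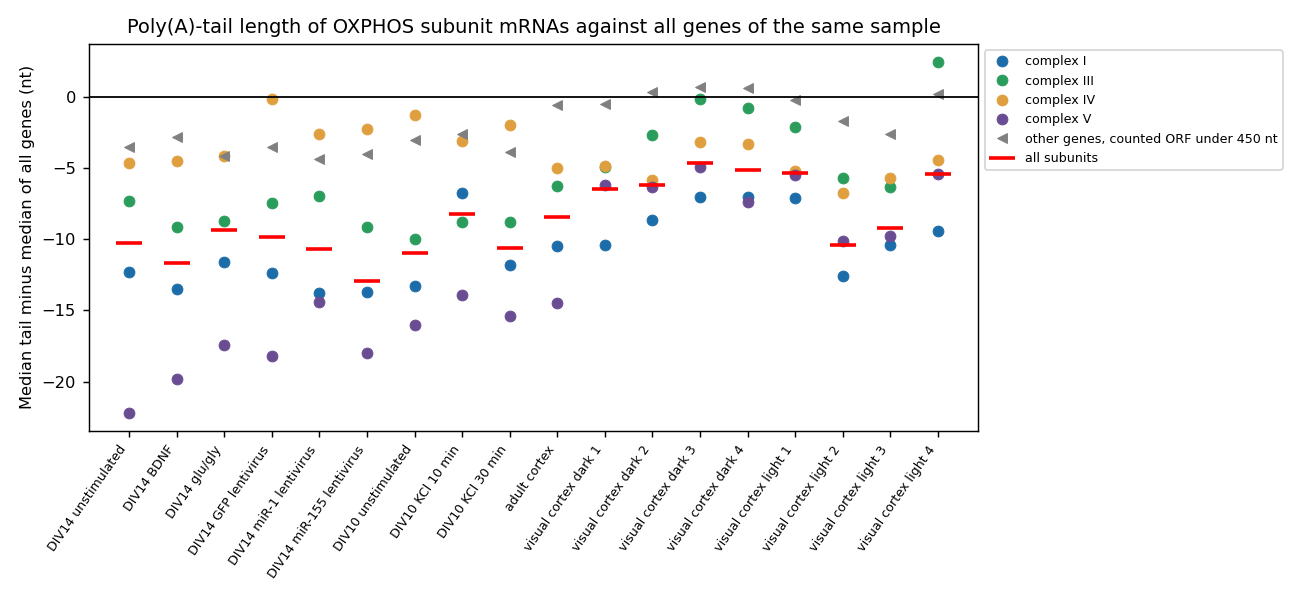
Median tail length of the mRNAs of each complex minus that of all genes (y axis, nt, at least 50 tags per gene) in the TAIL-seq samples and in 8 visual cortex PAL-seq samples (x axis). Grey triangles are other genes with an ORF below 450 nt, and the hippocampi and complex II, with 4 genes, are not drawn. The red bars of all subunits lie below 0 in all 18 samples, and complex V is lowest in the 9 cultures.

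Named by their mean over the 8 visual cortex samples, the shortest tails were those of Ndufa13, an accessory subunit of complex I, at 63.9 ± 3.3 nt (SD, n = 8), Atp5o, the stalk protein of ATP synthase that confers oligomycin sensitivity, at 65.5 ± 4.7, Ndufs6 at 68.1 ± 6.4, Sdhc at 68.7 ± 7.7 and Sdhb at 69.1 ± 6.3. Their median percentiles among all genes were 1.5 to 4.9. In TAIL-seq samples Ndufa13, Atp5o, Ndufs6 and Sdhc were again at the 0.9 to 3.6 percentiles, and Sdhb at the 18.9 percentile. The longest were Atp5d at 105.3 ± 10.7, Atp5g1 at 98.9 ± 6.3, the assembly factor Ndufaf8 at 95.6 ± 8.4, Cox6b1 at 94.8 ± 7.2 and Cox7b at 91.8 ± 8.4. Atp5d, which had the highest TE, was at the 96.6 percentile in visual cortex and at the 33.1 percentile in TAIL-seq samples. Cox6b1 was at the 71.0 and 14.8 percentiles in the same order and Cox7b at 69.2 and 47.9. Ndufaf8 was at 76.5 and 59.5 and Atp5g1 at 86.5 and 74.8. Complex II spanned much of the range, with Sdha at 88.1 ± 7.0 and Sdhd at 88.8 ± 8.0 nt. Across subunits the Spearman correlation of tail length between DIV14 cultures and adult cortex was 0.885 (n = 70), against 0.738 over 2663 genes. That of TE with tail length within a culture or adult cortex was 0.188 to 0.398 over the subunits and 0.061 to 0.239 over all genes. In the hippocampi, whose tail values look like medians, it was 0.072 (n = 45) in adult and 0.317 (n = 16) in embryonic tissue. Over all genes it was 0.186 and 0.107 there.

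Light exposure was the contrast with replicates, 4 mice in the dark and 4 after 1 h of light. The early genes of neuronal activity rose, with log2 changes by edgeR of 3.91 for Fos, 3.15 for Egr1, 2.84 for Npas4, 3.29 for Arc and 4.13 for Nr4a1 and adjusted p-values of at most 5.17e-05. Of 9554 genes tested by edgeR's quasi-likelihood test on tag counts, 128 (1.34%) passed an adjusted p of 0.05, and of the 72 subunits among them 0 did. At an unadjusted p below 0.05 by edgeR it was also 0 of 72, against 903 of all 9554 genes, and DESeq2 called 0 of 82. The log2 changes ran from −0.22 to 0.27, and the 95% interval of each of the 72 lay within a 2-fold change in either direction and that of 68 within 1.5-fold. The intervals of these 68 thus leave room for small changes only. Wider ones reached a log2 change of 0.86 for Atp5j, 0.77 for Cox6a2 and 0.62 for Atp5g2, and −0.85 for Ndufs5.

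The 5 subunits of smallest p were no exception. Ndufa3 of complex I had 274.9, 230.5, 250.6 and 231.1 tag CPM in the dark and 250.5, 188.3, 217.3 and 199.7 after light, a log2 change of −0.18 (SE 0.10, edgeR adjusted p = 0.641), and the groups overlapped. Ndufs8, a core subunit of complex I, had 75.23, 74.39, 69.48 and 69.25 and then 63.23, 49.8, 69.57 and 61.21, with a log2 change of −0.22 (edgeR adjusted p = 0.659), and 1 light value lay within the range of the dark ones. Uqcrc1 changed by 0.19, Uqcrq by 0.15 and Ndufa5 by −0.12, with adjusted p-values by edgeR of 0.66, 0.703 and 0.712. Sdha, at 644.3 ± 57.8 and 662.8 ± 52.0 tag CPM (SD, n = 4 each), changed by 0.06 (95% interval −0.12 to 0.25). The summed oligodendrocyte markers were 636 to 1060 in the dark and 418 to 787 after light, and those of neurons 9570 to 10700 and 9790 to 10900.

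Tail lengths did not pass the test either. By limma on mean tail length 10 of 4321 genes (0.231%) passed an adjusted p of 0.05 and 0 of the 68 subunits tested. At an unadjusted p below 0.05 by limma it was 1 of the 68 subunits and 170 of the 4321 genes. The changes ran from −4.88 to 13.12 nt with a median of 2.88 nt against 3.75 nt over all genes, and limma gave each gene the same SE of 6.68 nt. Atp5d had mean tails of 104.2, 105.8, 95.36 and 89.66 nt in the dark and 103.6, 118.3, 122.3 and 103.3 nt after light, a change of 13.12 nt (95% interval 0.03 to 26.22, limma adjusted p = 0.999), and 2 of the light values lay within the range of the dark ones. When each sample was centred on its median over genes, limma gave a change of 9.11 nt for Atp5d (SE 2.57, unadjusted p = 0.00468, adjusted p = 0.235, and 0.222 to 1 over all alternatives). For Atp5g1 limma then gave −8.90 nt (SE 2.73, unadjusted p = 0.00776, adjusted p = 0.275, and 0.215 to 1 over all alternatives), and 0 of 68 passed. With this centring 2 of 68 subunits and 435 of 4321 genes had an unadjusted p below 0.05 by limma. Atp5d and Atp5g1 both encode parts of ATP synthase. Among the other subunits of smallest p were Sdhd with 7.81 nt, Cox6b1 with 7.69 nt and Ndufs8 with 6.82 nt, each with an adjusted p of 0.999 by limma.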

How the data were processed

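The authors aligned reads with STAR 2.4.2 (submitters' processing notes, mm10) and deposited per-gene counts of reads that lay in ORFs beyond the first 50 nt, with RPM and RPKM computed from them, for RNA-seq and RPFs. The RPM the authors deposited was scaled to a total that holds reads outside the listed genes. For tails the authors deposited the tag count and a tail length per gene, which is a mean except in the hippocampi, where values in steps of 0.5 nt look like medians. From a combined table the authors deposited, log2 TE was taken as an alternative, and its 50 other value columns were not used.

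Reads or tags were rescaled to 1000000 over listed genes (CPM). Symbols came from RefSeq, and windows, promoters and sequences from GRCm38.p6. Single libraries were compared by the ratio of CPM with its exact (Clopper-Pearson) 95% interval, without a test, and a ratio of at least 1.5 in either direction with at least 10 RPM in one library was counted. Light was tested with edgeR 4.0.16 (quasi-likelihood, TMM scaling) on tag counts and with limma 3.58.1 on mean tail length for genes with at least 50 tags in all 8 samples, with Benjamini-Hochberg adjustment at 0.05, and DESeq2 1.42.0 as an alternative. R 4.3.3, Python 3.11.15, pandas 2.3.3, NumPy 2.4.6 and SciPy 1.17.1 were used, and the tests were tested on simulated data.

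The genes named were isoform families and complex II in full, the 3 highest and 3 lowest in mean TE (at least 5 samples), the 5 largest ratios in each direction per comparison, the 5 of smallest p for light and the 5 longest and 5 shortest tails in visual cortex. One result under this rule is not reported here. Members and lists were chosen with earlier results of these data known. Groups came from the labels, and 2 RPF libraries whose labels contradict themselves entered no comparison. Alternatives covered scaling, minimum level, fold, tags in place of reads, tag minimum, leaving out each replicate, centring and a replicate block.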

Additional observations from a re-analysis of the deposited data

Results flagged for a closer look

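The tail length of Sdhb in visual cortex after light was far from the other replicates in 1 sample. Light replicate 3 had a mean tail of 76.86 nt, whereas the other 3 had 68.25, 67.53 and 68.47 nt, and the 4 dark samples lay between 58.27 and 75.24 nt. The gap to the nearest light sample, divided by the range of the 4 light values, was above the critical value of Dixon's test for 4 samples. Chance exceeds that value in about 1 in 20 groups. It was looked for in the named mRNAs only, in both groups, so that many groups were examined at this rate. Light replicate 3 also had the longest light tail for other subunits, such as Cox5b with 92.1 nt against 77.35 to 84.47 nt. It did not for all, as Atp5g1 had 98.89 nt there and 101.9 nt in light replicate 2.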

How the results depend on the processing

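The limits lie in single libraries, in small RNA-seq counts in cultures and in ORF sequence that 7 subunits share in full with other places. Counts of subunits past 1.5-fold moved with the settings. They are given in 1 direction each, higher for hippocampus, DIV14 against DIV10, miR-1 and miR-155 and lower for the others. Shares of all genes past the limit are given for the main setting only, so the alternative counts do not set the subunits apart from other genes. With tail tags the median of the subunits also changed its position relative to all genes in hippocampus and with glu/gly. The cause was not tested where not evident from the setting. With a 2-fold limit 7 subunits were higher in adult hippocampus and 34 lower in adult cortex, and 0 for DIV14 against DIV10, BDNF, KCl at 10 min, miR-1 and miR-155, and 1 for glu/gly, KCl at 30 min and GFP. With the authors' RPM, which rests on all reads, the counts were 10 higher in adult hippocampus, 5 for DIV14 against DIV10, 2 for BDNF, 2 for glu/gly, 31 lower for KCl at 30 min, 10 for GFP and 10 for miR-1. Scaling by the median ratio of genes gave 51 for hippocampus and 5 for glu/gly. A minimum of 30 RPM gave 16 for hippocampus, 1 for DIV14 against DIV10, 2 for BDNF, 0 for KCl at 10 min, 3 for KCl at 30 min, 0 for GFP and 1 for miR-1. Tail tags in place of reads gave 10 lower in adult cortex, 0 for DIV14 against DIV10, BDNF, GFP, miR-1 and miR-155, 1 for glu/gly and KCl at 30 min and 2 for KCl at 10 min.

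With a minimum of 30 RPM, the share of subunits with TE above the median of all genes was 40.8% in unstimulated DIV14 cultures, 35.6% with BDNF, 41.5% with glu/gly, 39% with GFP, 27.5% at DIV10, 48.9% after KCl for 10 min and 32.1% after 30 min. Without a minimum it was 42.7% after KCl for 30 min. In adult hippocampus the share of subunits with tails below the median was 25.8% with at least 20 tags and 73.5% with at least 100, against 40% with 50. In embryonic hippocampus it was 0% with at least 100 tags against 37.5%. The other 140 alternatives for these results moved a count by at most 1.5 times or a share within its 95% binomial interval, and all 178 for single genes kept the direction and the side of the threshold.

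For light, 0 subunits passed in any alternative, without each replicate in turn (0 to 0, for tags and for tails) and with the replicate block (0 for both). Over all genes, leaving out 1 sample left 94 to 130 tag counts higher and moved the tails called longer from 10 to between 1 and 21. It was 1 without dark replicate 3, dark replicate 4, light replicate 2 or light replicate 3, 2 without dark replicate 2, and 21 without light replicate 4. Replicate numbers did not pair the samples, since same-numbered samples had correlations of deviations of 0.119, −0.162, −0.201 and −0.076 in tags and −0.113, 0.030, −0.094 and 0.041 in tails, and the replicate block gave 105 higher and 10 lower tag counts and 1 longer tail over all genes.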

Other observations

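The 2 RPF libraries of lentivirus cultures whose labels contradict themselves had 817114 and 6428048 reads on genes, of which 1.96% and 1.59% fell on the 93 mRNAs.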
